A study of Saccharomyces cerevisiae with 3 samples.

Results

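5.8S and internal transcribed spacer 2 (ITS2) are neighbouring stretches in the middle of the yeast 35S gene, the single transcription unit from which RNA polymerase I (Pol I) makes the precursor of 18S, 5.8S and 25S rRNA. They were taken as all positions that the deposited table labels 5.8S or ITS2. These are 158 positions of 5.8S, from 2862 to 3019 of the transcript, and 232 positions of ITS2, from 3020 to 3251, together 390 of the 6858 positions of the gene. In assembly R64, 5.8S lies on chrXII:464551-464708 and ITS2 on chrXII:464319-464550, both read from the minus strand. The limits of 5.8S are those of RDN58-2 in the RefSeq annotation of that assembly, and ITS2 fills the space between it and RDN25-2, so the labels of the table and the annotation match.

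Native elongating transcript sequencing (NET-seq) was used to ask whether Hmo1, a high mobility group protein that coats actively transcribed rDNA, affects elongation by Pol I. It recovers RNA bound to immunoprecipitated Pol I and maps the 3′ end of each RNA to single-nucleotide resolution. The measured samples were 3 replicates of *hmo1Δ* yeast, each from its own culture, grown in rich medium at 30 °C. The strain carries an HA-tagged and histidine-tagged RPA135, the Pol I subunit used for purification, marked with TRP1, and a deletion of *HMO1* marked with URA4. The wild-type (WT) strain carries the same tagged RPA135 and intact *HMO1*. WT enters here only as the authors' median over its replicates, because the single WT libraries belong to another series. It is therefore printed without an error of its own, no test between strains was made, and the effect of the strain cannot be told apart from that of the library series. The table covers the 35S gene alone, so *HMO1* itself was not analysed here.

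5.8S rRNA pairs with 25S rRNA in the large ribosomal subunit. ITS2, which lies between them in the precursor, is absent from the mature ribosome. It is opened by the endonuclease Las1, and the remains are trimmed toward 5.8S by the exosome and toward 25S by the exonuclease Rat1. A spacer position in NET-seq therefore reports mainly precursor RNA, whereas a 5.8S position can also hold 3′ ends of finished rRNA, which the paper states is present in such libraries. The values do not separate 3′ ends of nascent RNA from those of mature rRNA or of trimming intermediates.

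The 2 stretches are shown first as RNA, 5′ to 3′ as in the deposited table, because the results turn on which of their bases carried the most 3′ ends. Capitals mark the tenth of positions with the highest occupancy, 16 in 5.8S and 24 in ITS2, by the *hmo1Δ* median in the upper line of each pair and by the WT median in the lower line.
5.8S *hmo1Δ*: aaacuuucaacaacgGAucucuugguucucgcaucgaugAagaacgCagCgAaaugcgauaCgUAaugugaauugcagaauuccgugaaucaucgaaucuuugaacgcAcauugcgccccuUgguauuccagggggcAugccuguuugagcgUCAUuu
5.8S WT: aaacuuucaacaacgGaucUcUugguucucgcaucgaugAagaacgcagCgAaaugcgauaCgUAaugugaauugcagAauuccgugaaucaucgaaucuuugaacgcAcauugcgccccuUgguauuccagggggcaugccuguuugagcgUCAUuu
ITS2 *hmo1Δ*: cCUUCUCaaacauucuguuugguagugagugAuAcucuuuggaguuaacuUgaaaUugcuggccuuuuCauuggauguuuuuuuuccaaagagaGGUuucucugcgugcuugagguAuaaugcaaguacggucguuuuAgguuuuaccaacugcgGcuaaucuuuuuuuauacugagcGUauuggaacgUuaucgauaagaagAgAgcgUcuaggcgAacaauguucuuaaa
ITS2 WT: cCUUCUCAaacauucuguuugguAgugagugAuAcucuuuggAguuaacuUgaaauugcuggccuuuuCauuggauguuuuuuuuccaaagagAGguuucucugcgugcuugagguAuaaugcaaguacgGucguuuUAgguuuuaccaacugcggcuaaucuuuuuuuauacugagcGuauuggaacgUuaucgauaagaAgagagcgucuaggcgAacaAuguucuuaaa
In 5.8S the strains shared 13 of the 16 capitals, and in ITS2 they shared 16 of 24. U makes up 37.1% of the bases of ITS2 and 27.8% of those of 5.8S.

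Occupancy of ITS2 was about 2-fold higher in *hmo1Δ* than in WT, whereas that of 5.8S was slightly lower. Values are in RPM, the reads at a position scaled by the authors to 1000000 per library up to the T1 terminator. In ITS2 the mean per position was 92.1, 88.5 and 88.9 RPM in *hmo1Δ* replicates 1, 2 and 3, against 45.2 RPM in the WT median. All 3 replicates lay close together and above WT, at a fold of 1.99 ± 0.04 (SD, n = 3) and a log2 ratio of 0.99 ± 0.03. In 5.8S the mean per position was 204, 195 and 204 RPM in the 3 replicates, against 224 RPM in WT. All 3 were below WT, at a fold of 0.899 ± 0.023 (SD, n = 3) and a log2 ratio of -0.15 ± 0.04. Averaging log2(RPM + 1) over positions instead of summing RPM gave 0.01 ± 0.05 for 5.8S, so its direction depends on the summary. It stayed below WT by the median position, at -0.20 ± 0.03, and without its 5 highest positions, at -0.12 ± 0.02 (SD, n = 3). 5.8S accounted for 3.17% ± 0.080 (SD, n = 3) of all occupancy in *hmo1Δ* and 3.54% in WT, and ITS2 for 2.08% ± 0.045 against 1.05%. These are shares of each library, of which 18S made up 27.6% and 25S 59.3% in *hmo1Δ*, and 30.7% and 58.9% in WT. Scaled to the 4 spacers instead, of which ITS2 is one, the log2 ratio was 0.45 ± 0.04 for ITS2 and -0.70 ± 0.07 for 5.8S (SD, n = 3). In bulk cultures a change in the number of transcribing cells and one in RNA per cell cannot be told apart.

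The replicates were deep enough for single positions to be read. From the value of 1 read inferred for each library, the replicates held 119048, 61167 and 90689 reads in 5.8S and 79054, 40743 and 57971 reads in ITS2. The median ITS2 position held 196, 110.5 and 139 reads in replicates 1, 2 and 3, a counting error of 7.14%, 9.51% and 8.48%. The median 5.8S position held 465, 242 and 358.5 reads, a counting error of 4.64%, 6.43% and 5.28%. The spread between replicates was wider than counting noise, with a chi-square per degree of freedom of 3.04 to 6.52 over the pairs of replicates in the 2 stretches. Over the *hmo1Δ* replicates the coefficient of variation of a position had a median of 10.04% in 5.8S and 11.4% in ITS2. The authors' deposited coefficient of variation for WT had a median of 7.80% in 5.8S and 10.5% in ITS2.

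**Figure D1:**
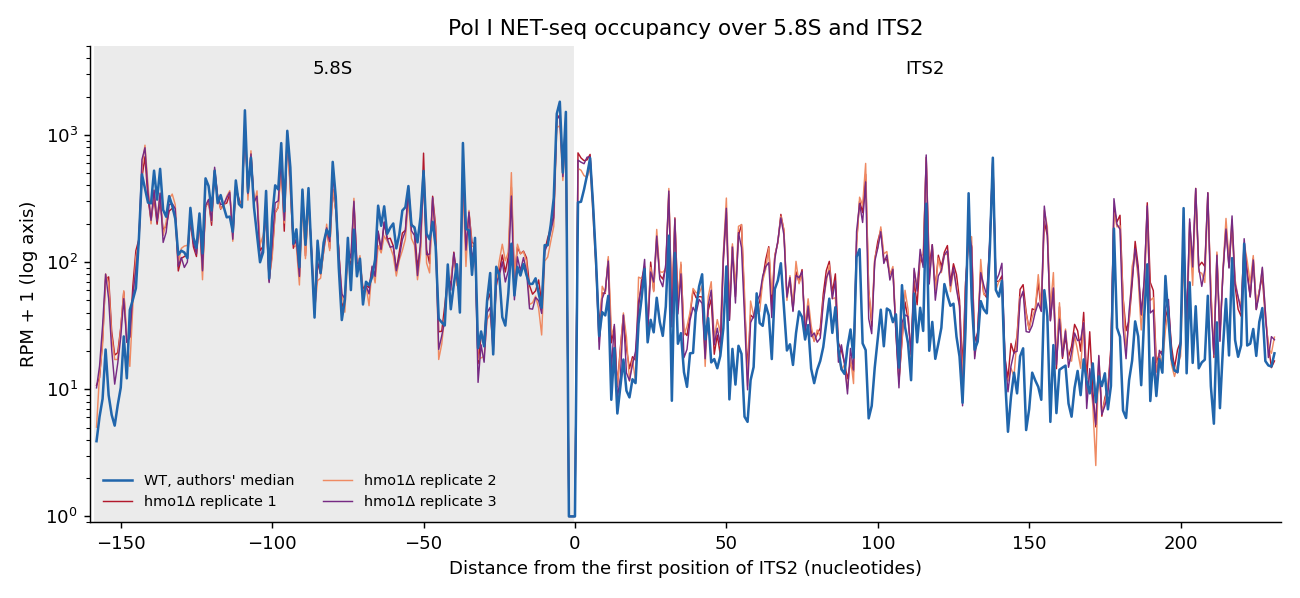
Occupancy at each of the 390 positions, as RPM + 1 on a log axis, against the distance from the first position of ITS2. The 3 *hmo1Δ* replicates (red, orange and purple lines) overlay the WT median (blue) over most of 5.8S (shaded) and lie above it over most of ITS2.

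The level stepped down from 5.8S to ITS2 in both strains, and the step was smaller in *hmo1Δ*. The mean of ITS2 over the mean of 5.8S gave log2 values of -1.14, -1.14 and -1.20 in replicates 1, 2 and 3, so ITS2 lay 2.24 ± 0.05-fold (SD, n = 3) below 5.8S. The WT median gave -2.31, which places ITS2 4.95-fold below 5.8S. The *hmo1Δ* step was thus 1.15 ± 0.03 (SD, n = 3) log2 units shallower, and all 3 replicates were on that side of WT. Within the *hmo1Δ* libraries the step had the same direction in 3 of 3 replicates, and the exact two-sided sign-flip permutation test gave *p* = 0.25, the smallest that 3 replicates allow. ITS2 held 39.9%, 40.0% and 39.0% of the summed occupancy of the 390 positions in the 3 replicates and 22.9% in WT. By the median position of each stretch the step was -1.25 ± 0.12 (SD, n = 3) in *hmo1Δ* and -2.77 in WT.

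The border itself was flanked by high positions on both sides. The last 10 bases of 5.8S (capitals) and the first 10 of ITS2 are shown because these positions set the shape of the border.
Border: AGCGUCAUUUccuucucaaa
Positions 3018 to 3020, the last 2 U of 5.8S and the first C of ITS2, are listed at 0 in all 3 replicates and in the WT median. They stand directly between positions with some of the highest values of the stretch, so a 0 there is not read as an absence of 3′ ends. By the median of each strain the highest of the 390 positions was 3015, a C near the 3′ end of 5.8S, with 1434, 1178 and 1410 RPM in replicates 1, 2 and 3 and 1821 RPM in WT. The neighbouring U at 3014 had 1337, 1137 and 1323 RPM against 1464 RPM, and the U at 3017 had 1352, 1065 and 1225 RPM against 1514 RPM. At each of these 3 positions every replicate was below WT, and replicate 2 was the lowest. The authors' coefficient of variation for WT was 16.4% at 3015, 12.0% at 3014 and 10.7% at 3017. The 4 positions 3014 to 3017 alone held 13.5% ± 1.07 (SD, n = 3) of 5.8S occupancy in *hmo1Δ* and 15.0% in WT.

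Directly after the zeros, positions 3021 to 3025 formed a plateau in *hmo1Δ* where the WT median climbed, and both were lower at 3026. Position 3021 had 720, 543 and 632 RPM in replicates 1, 2 and 3 against 293 RPM in WT, a fold of 2.15 ± 0.30 (SD, n = 3). Position 3022 had 657, 526 and 608 RPM against 297 RPM. At both, all 3 replicates were well above WT. At position 3025, the highest of ITS2 by the *hmo1Δ* median, the values were 701, 547 and 671 RPM against 656 RPM, so the replicates lay on both sides of WT. Position 3026 had 279, 224 and 256 RPM against 275 RPM, again on both sides. The 6 positions 3021 to 3026 held 15.7% ± 1.87 (SD, n = 3) of ITS2 in *hmo1Δ* and 22.7% in WT. From the 4 positions before the zeros to the 6 after them, the mean dropped by a log2 value of -0.98 ± 0.05 (SD, n = 3) in *hmo1Δ* and -1.74 in WT. Without the first 10 positions of ITS2, the log2 ratio of the spacer to WT was 1.13 ± 0.03 (SD, n = 3), so the higher level of ITS2 in *hmo1Δ* was not carried by the border.

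**Figure D2:**
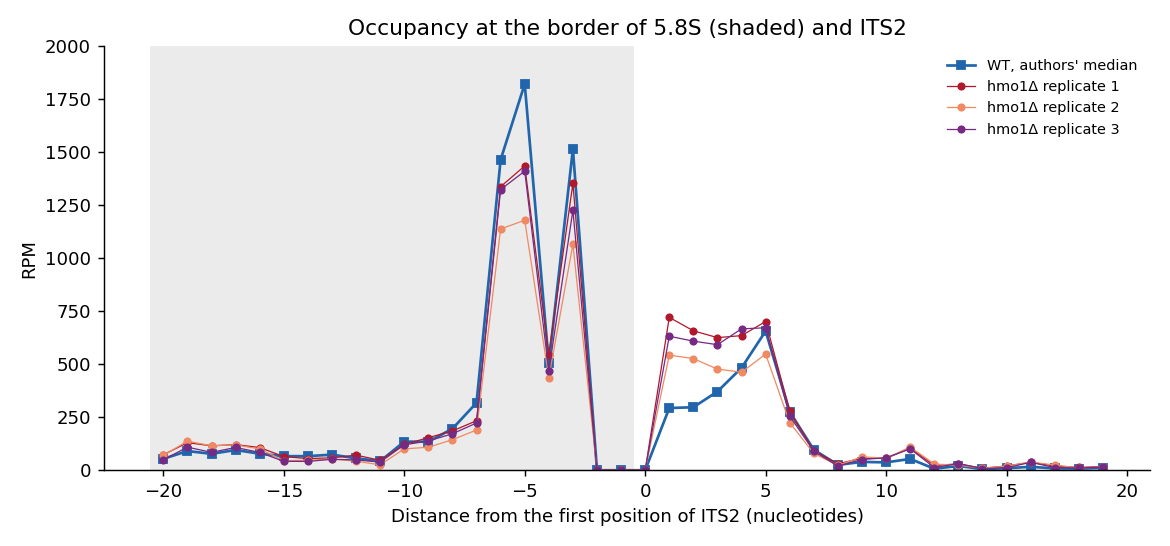
RPM at the last 20 positions of 5.8S (shaded) and the first 20 of ITS2, against the distance from the first position of ITS2, for the 3 *hmo1Δ* replicates (circles) and the WT median (squares). WT is highest at the 3′ end of 5.8S, the 3 *hmo1Δ* replicates are above WT at the first positions after the zeros, and at 6 nucleotides both strains lie between 224 and 279 RPM.

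Position by position, ITS2 was above WT over most of its length. At 192 of 232 ITS2 positions (82.8%) every *hmo1Δ* replicate exceeded the WT median, a rule met by 44.2% of the 6858 positions of the gene. ITS2 was not alone among the spacers, since 80.1% of ITS1, 79.1% of ETS2 and 48.0% of ETS1 positions met it. The ITS2 replicates were all below WT at 19 positions (8.19%), against 37.2% over the gene. At 21 positions (9.05%) they were on both sides or listed at 0. A ratio of at least 1.5 in every replicate was reached at 149 ITS2 positions (64.2%), against 21.0% over the gene, and a ratio of at least 4 at 34 positions (14.7%), against 2.52% over the gene. In 5.8S positions below WT outnumbered those above it, with all 3 replicates above WT at 51 of 158 positions (32.3%) and below it at 82 (51.9%). Few 5.8S positions were far from WT. The replicates were all at least 1.5 times WT at 20 positions (12.7%), near the 12.5% of 18S and 14.6% of 25S. They were all at or below WT divided by 1.5 at 12 (7.59%), which is about the 7.45% over the gene. That share was 12.6% in 18S and 3.77% in 25S. When the profiles were scaled to the 4 spacers alone, 23 positions of 5.8S and 151 of ITS2 were above WT in all replicates. The share over the gene was not counted at that scaling, and the 44.2% given above does not apply to these counts.

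At the authors' scaling the difference ran along the whole spacer. The windows were not counted when scaled to the 4 spacers, where the log2 ratio of all ITS2 was 0.45 ± 0.04 (SD, n = 3). In all of the 12 ITS2 windows of 20 positions, counted from the border and the last one shorter, each replicate had a mean above WT. The window with the largest fold was 3100 to 3119, at 3.04 ± 0.22 (SD, n = 3). It did not separate from 3160 to 3179, at 2.97 ± 0.10, or 3220 to 3239, at 2.87 ± 0.11. The lowest were 3140 to 3159, which holds the WT peaks at 3150 and 3158, with a fold of 1.22 ± 0.05 (SD, n = 3), and the border window 3020 to 3039, at 1.39 ± 0.16. The longest unbroken run of positions with every replicate above WT covered 26 positions, 3081 to 3106, and its log2 ratio was 1.17 ± 0.05 (SD, n = 3). The next, 23 positions from 3166 to 3188, had mean levels of 48.9, 52.1 and 48.0 RPM in the replicates and 13.97 RPM in WT. No run of ITS2 positions below WT was longer than 3. Summed over ITS2, *hmo1Δ* had 10363 ± 455 RPM (SD, n = 3) more than WT, and the 10 positions with the largest gains made up 26.5% of the gains.

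5.8S was divided in the same way into 8 windows. In 5 of them every replicate was below WT, in 2 the replicates fell on both sides, and in the first window they were above WT. That window, 2862 to 2879 at the 5′ end of 5.8S, had a log2 ratio of 0.58 ± 0.10 (SD, n = 3), and the next, 2880 to 2899, had -0.35 ± 0.07. The first 11 positions, 2862 to 2872, were above WT in every replicate, the longest such run in 5.8S, with mean levels of 33.1, 32.2 and 29.6 RPM against 9.49 RPM. Their log2 ratio was 1.74 ± 0.08 (SD, n = 3). This 5′ end was low in both strains, and its first 10 positions held 1.02% ± 0.071 (SD, n = 3) of 5.8S occupancy in *hmo1Δ* and 0.264% in WT. Without them the log2 ratio of 5.8S was -0.17 ± 0.04. The longest run below WT, 12 positions from 2954 to 2965, had mean levels of 162, 134 and 156 RPM in the replicates against 217 RPM.

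**Figure D3:**
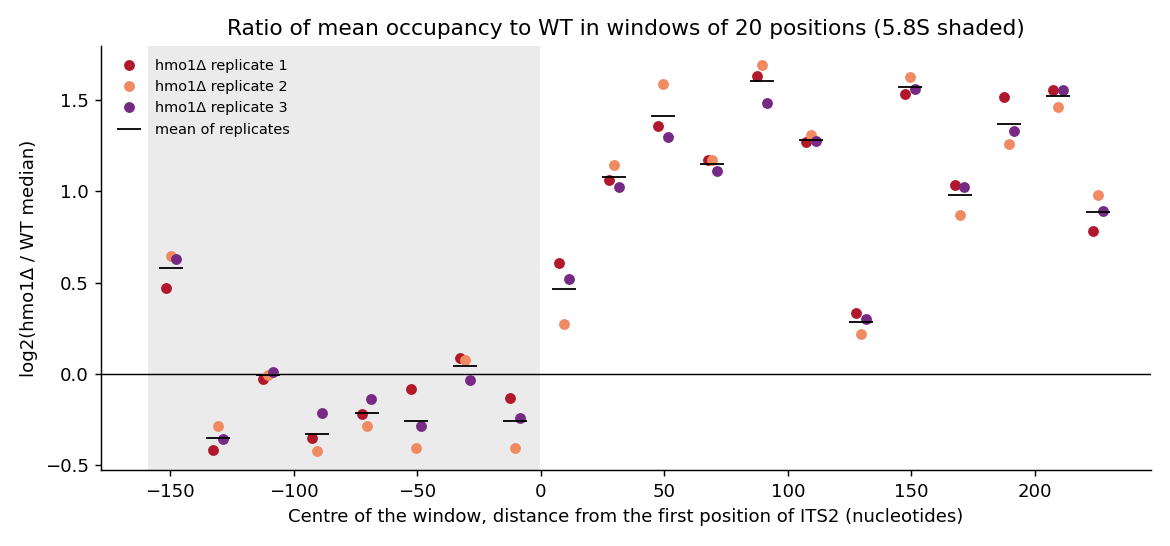
Log2 ratio of mean occupancy in *hmo1Δ* to the WT median in windows of 20 positions, against the distance of the window centre from the first position of ITS2. Points are the 3 replicates and black bars their mean. Every point in ITS2 is above 0, and in 5.8S (shaded) only the first window has all 3 points above 0.

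The positions named next were chosen by rule as the highest of each stretch and those with the largest ratios to WT on either side, among positions at 20 RPM or more in either strain. Their surroundings, 20 bases before and 10 after, are shown for the ITS2 positions with the largest ratios above (3116) and below WT (3128 and 3110) and for its 2 highest interior positions (3136 and 3158), with the position itself in capitals.
Position 3110: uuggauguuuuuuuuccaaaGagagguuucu
Position 3116: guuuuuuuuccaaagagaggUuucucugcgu
Position 3128: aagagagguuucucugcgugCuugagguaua
Position 3136: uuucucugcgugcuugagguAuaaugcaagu
Position 3158: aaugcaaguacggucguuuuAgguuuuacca
Position 3116 is the first U after a purine stretch that a run of 8 U and a pair of C precede. It had 489, 595 and 425 RPM in replicates 1, 2 and 3 against 19.3 RPM in WT, so the lowest replicate was far above WT and the position was among the top 24 of ITS2 in *hmo1Δ* only. This is a fold of 26.1 ± 4.44 (SD, n = 3), with a WT coefficient of variation of 12.8% in the authors' table. Its neighbours were also above WT in every replicate. Position 3115 had 244, 279 and 204 RPM against 21.9 RPM, a fold of 11.04 ± 1.73 (SD, n = 3). Position 3117 had 60.3, 59.0 and 34.9 RPM against 4.90 RPM, a fold of 10.5 ± 2.92, with a WT coefficient of variation of 29.8%. In WT 3116 and 3117 were below 20 RPM, so they passed the rule through *hmo1Δ* alone, and their folds rest on low WT values.

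Immediately upstream of this peak, positions 3110 to 3112 were below WT in every replicate, one of the runs of 3 that were the longest on that side. Position 3110, the first G of the purine stretch, had 11.1, 9.07 and 8.18 RPM against 20.5 RPM, a fold of 0.461 ± 0.072 (SD, n = 3). The position furthest below WT in ITS2 was 3128, a C, with 22.7, 23.2 and 32.4 RPM against 64.8 RPM, a fold of 0.403 ± 0.084 (SD, n = 3). Position 3215, an A, had 35.4, 28.2 and 42.3 RPM against 76.7 RPM. All replicates were below WT at each, at levels far from the peaks of the spacer.

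The highest interior positions of ITS2 behaved differently from each other. Position 3136, an A, had 665, 650 and 694 RPM against 286 RPM in WT, a fold of 2.34 ± 0.08 (SD, n = 3), above the 1.99 ± 0.04 of the spacer as a whole. Position 3158, an A after a run of 4 U, had 650, 536 and 657 RPM against 660 RPM and was the highest ITS2 position of WT. Its replicates were all below WT, and the median of the 3 was 650 RPM. The mean fold of 0.931 ± 0.103 (SD, n = 3) was within the replicate spread of 1, while most of the spacer was above WT. Further positions were picked out after their values were seen. Position 3150, a G, was a WT peak that was lower in *hmo1Δ*, at 140, 160 and 181 RPM against 346 RPM. At 3221, an A, the values were 139, 104 and 157 RPM against 264 RPM, and 4 nucleotides on, at 3225, another A had 379, 346 and 376 RPM against 43.9 RPM. The replicates of each were all on the stated side of WT.

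**Figure D4:**
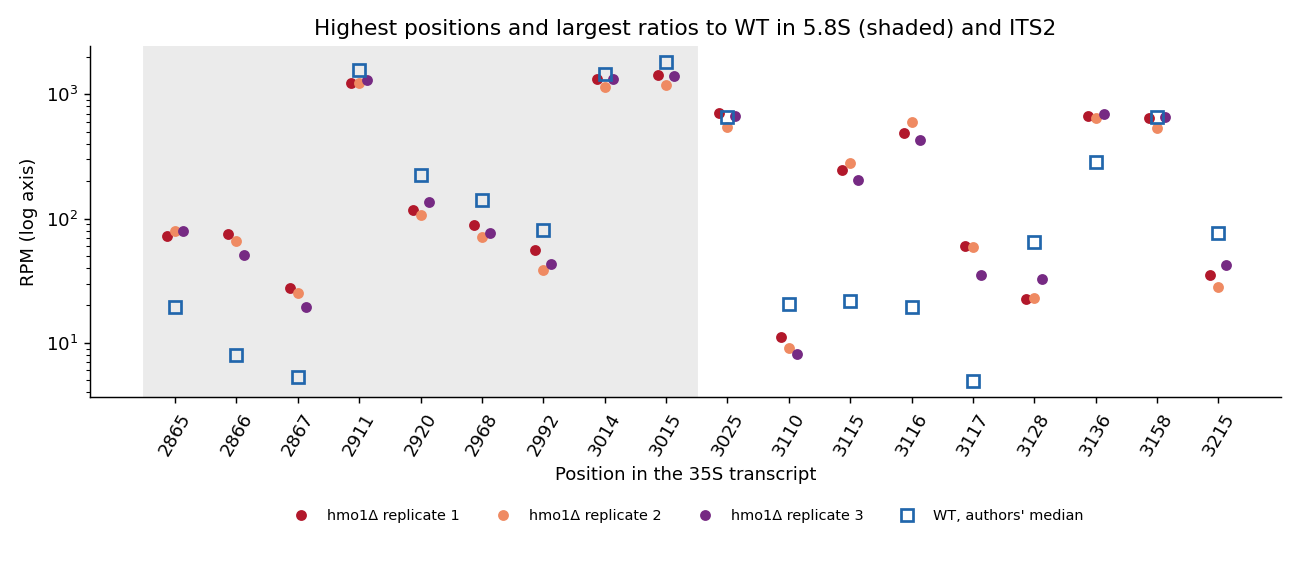
RPM on a log axis at the positions chosen by rule in 5.8S (shaded) and ITS2, for the 3 *hmo1Δ* replicates (filled circles) and the WT median (open squares), against position in the transcript. The replicates cluster together. The gap to WT is widest at 3115 to 3117, with mean folds of at least 10. These positions were chosen for the largest ratios above WT in ITS2, so a wide gap there follows from the rule.

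In 5.8S the same rule named positions at its ends and in its interior. The largest ratios above WT were at 2866, a U with 75.4, 66.5 and 50.5 RPM against 7.99 RPM and a fold of 8.03 ± 1.58 (SD, n = 3), and at its neighbours 2867 and 2865, with folds of 4.56 ± 0.78 and 3.94 ± 0.23. All 3 lie in the low stretch at the 5′ end. In WT each was below 20 RPM, so they passed the rule through *hmo1Δ* alone. The authors' coefficient of variation for WT was 4.47% at 2866, 32.0% at 2867 and 3.24% at 2865. The largest ratios below WT were at 2920, an A with 116, 106 and 136 RPM against 223 RPM, at 2992, an A with 55.7, 38.3 and 43.1 RPM against 80.9 RPM, and at 2968, a G with 89.5, 71.6 and 77.2 RPM against 142 RPM. Their folds were 0.538 ± 0.068, 0.564 ± 0.111 and 0.559 ± 0.064 (SD, n = 3). Among the tall positions, 2911, a C, had 1231, 1234 and 1301 RPM against 1558 RPM in WT, below it in all replicates. Picked out after the values were seen, the A at 2878 had 672, 829 and 790 RPM against 379 RPM, and the U at 2983 had 509, 412 and 521 RPM against 862 RPM. 5.8S thus held tall positions on both sides of WT.

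The order of positions was more alike between the strains in 5.8S than in ITS2. As a description across positions, which share libraries and are not independent, the Spearman coefficient of single replicates with the WT median was 0.903 to 0.950 in 5.8S (n = 158 positions) and 0.731 to 0.784 in ITS2 (n = 232). Between replicates it was 0.975 to 0.988 in 5.8S and 0.974 to 0.980 in ITS2. Replicate pairs shared 87.5% to 91.7% of their top 24 ITS2 positions, and single replicates shared 62.5% to 70.8% with WT. A peak was counted where a position was the highest within 5 on each side and at least 2 times the median of its stretch. In 5.8S, 10 peaks were found in every replicate and 9 in WT, and 7 were the same positions. In ITS2 each replicate had 13 peaks and WT had 22. Of the ITS2 peaks, 11 were found in all 3 replicates, and 9 of these were also WT peaks. The other 2 were 3116 and 3225, which lie within 5 positions of WT peaks, at 3114 for the first and at 3221 and 3229 for the second. The median of ITS2 is lower in WT, at 21.1 RPM against 52.7 ± 3.12 RPM (SD, n = 3), so lower positions passed there. Height was not the only reason, because the rule keeps only the tallest position within 5. At the WT peaks 3114 and 3229 *hmo1Δ* was above WT, at folds of 2.42 ± 0.14 and 6.28 ± 0.48 (SD, n = 3). They were not *hmo1Δ* peaks because 3116 and 3225 were taller. At the WT peak 3221, also near 3225, *hmo1Δ* was below WT. The 10 highest positions held 26.6% ± 1.66 (SD, n = 3) of ITS2 in *hmo1Δ* and 37.5% in WT, and 29.3% ± 0.75 of 5.8S against 31.1%.

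The bases at and before the 3′ end were then counted, a property that the choice of the stretches did not use. Positions listed at 0 were left out. The base at the position itself was U at 86 ITS2 positions, and at 83 of them (96.5%) all 3 replicates were above WT. The share was 83.3% of 36 C, 81.1% of 53 G and 64.3% of 56 A. Over all ITS2 positions it was 82.8%, so C and G were near the share of the spacer. The share over the gene was not counted by base. In ITS1 the shares were 86.8% at U, 77.2% at C, 79.5% at G and 75.2% at A, so U was highest and A lowest there too. By summed occupancy the log2 ratio was 1.18 ± 0.06 (SD, n = 3) at U, 0.95 ± 0.03 at G, 0.91 ± 0.08 at C and 0.84 ± 0.03 at A, where only U was clear of the others. The mean level was 106 ± 2.45 RPM (SD, n = 3) at A and 99.5 ± 5.69 RPM at C, which did not clearly separate, and 89.2 ± 3.86 RPM at U and 69.4 ± 1.42 RPM at G. In 5.8S the summed log2 ratio was -0.29 ± 0.06 at C, -0.22 ± 0.05 at U, -0.12 ± 0.03 at G and 0.00 ± 0.03 at A.

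The median ratio to WT in ITS2 went up with the number of G, and down with the number of U, among the 10 bases that end at the position. With 0 to 1 G the median log2 ratio, on log2(RPM + 1), was 0.75 ± 0.10 (SD, n = 3 replicates, 63 positions). It was 1.05 ± 0.15 with 2 G (50 positions), 1.16 ± 0.03 with 3 G (80 positions) and 1.71 ± 0.07 with 4 or more (38 positions). The step from 3 to 4 or more was larger than the spread between replicates, whereas 2 and 3 did not separate. All 3 replicates were above WT at 37 of the 38 positions with 4 or more G (97.4%), and at 45 of the 63 with 0 to 1 (71.4%). Over the whole gene these shares were 56.9% and 36.4%, and in ITS1 they were 97.1% and 72.4%. The medians from 0 to 1 G up to 4 or more were -0.09, -0.08, 0.09 and 0.29 over the gene and 0.83, 0.94, 1.08 and 1.88 in ITS1, so ITS1 had the same order as ITS2. For U the medians in ITS2 were 2.05 ± 0.01 (SD, n = 3 replicates, 22 positions) with 0 to 1, 1.44 ± 0.13 with 2 (27 positions), 1.15 ± 0.01 with 3 (62 positions) and 0.88 ± 0.08 with 4 or more (120 positions). This range was at least as wide as that for G. By summed occupancy the log2 ratio rose with G, at 0.67, 0.88, 1.06 and 1.44, but fell unevenly with U, at 1.56, 1.07, 1.23 and 0.72. For A the summed values were 0.63, 1.36, 1.00 and 1.53, and for C 1.24, 0.83, 0.84 and 0.65. The ratio thus differed with the count of A and C too. Without the first 10 positions of ITS2, the median with 0 to 1 G was 0.85 ± 0.12, and the order of the medians was the same. In 5.8S the order for G was not seen, with 0.35 ± 0.19, -0.30 ± 0.09, -0.13 ± 0.07 and 0.31 ± 0.17 from 0 to 1 G up to 4 or more. Neighbouring windows of 10 bases overlap, and G and U counts in ITS2 exclude each other in part, so these values describe the stretch and carry no test.

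**Figure D5:**
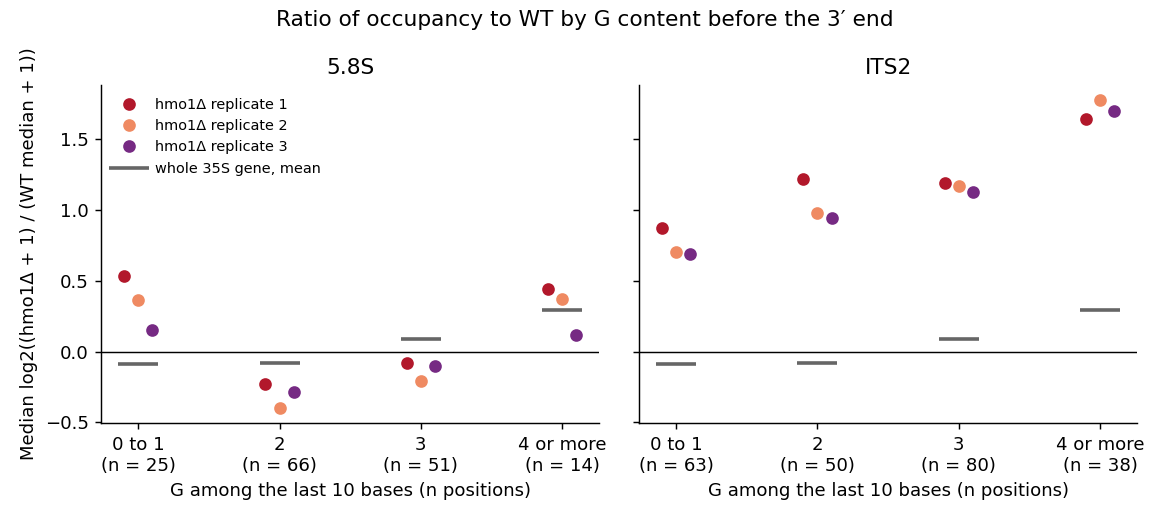
Median log2 ratio of *hmo1Δ* to the WT median, on log2(RPM + 1), by the number of G among the 10 bases ending at a position, for 5.8S (left) and ITS2 (right). Points are the 3 replicates and grey bars the mean over the whole gene. In ITS2 the points go up from near 0.75 to near 1.71, and in 5.8S they do not.

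5.8S was compared with 18S and 25S, and ITS2 with ITS1, in the same libraries. ITS1, the spacer on the 5′ side of 5.8S, had a log2 ratio of 1.08 ± 0.02 (SD, n = 3). ITS2 was lower than ITS1 by 0.09 ± 0.04 (SD, n = 3) in 3 of 3 replicates (exact two-sided sign-flip permutation test, *p* = 0.25, adjusted over 3 comparisons 0.375). By the median position ITS2 was instead higher than ITS1, by 0.33 ± 0.08, so the direction depends on the summary. The outer spacers were not tested against ITS2, and their log2 ratios were 0.08 ± 0.12 in ETS1 and 1.22 ± 0.28 in ETS2 (SD, n = 3). 18S had a log2 ratio of -0.15 ± 0.01, and 5.8S differed from it by -0.00 ± 0.05 (SD, n = 3), with replicates on both sides (exact permutation test, *p* = 1, adjusted 1). 5.8S lay below 25S by 0.17 ± 0.03 in 3 of 3 replicates (exact permutation test, *p* = 0.25, adjusted 0.375). With 3 replicates no such test can go below 0.25.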

How the data were processed

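The data were the deposited RPM at each position of the 35S gene. The authors removed duplicate reads by UMI. They clipped adaptors (cutadapt 3.4), mapped the reads to assembly R64 (STAR 2.7.1a) and took per-position coverage from bedtools 2.28.0. They scaled the reads of each library to a total of 1000000 RPM up to T1 at position 6739. The assembly holds 2 complete copies of the 35S gene, and how reads were shared between them is not given in the sources used here. The authors also deposited a WT median in RPM and a score column with the coefficient of variation over WT replicates, in percent. 3 columns of single WT libraries, which are samples of another series, were not used. The authors' mean of WT and their columns of strain differences, ratios, confidence limits and *p*-values were left out as well.

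Each *hmo1Δ* replicate was divided by the WT median, and log2 ratios, shares and steps were summarised as mean and SD over 3 replicates. Reads were recovered from the RPM of 1 read, of which values were whole multiples (within 0.01) at all 390 positions. A count test was not possible, since 1 group gives no contrast. The RPM of 1 read was inferred from the lowest values, and over the gene 5, 0 and 2 positions of replicates 1, 2 and 3 were not whole multiples. Dividing the summed RPM of the gene by it gave 3704662.5, 1985964 and 2813120. The first is not a whole number, so the read numbers are approximate. The errors given for reads cover counting alone. The stretches, positions rule and comparisons were chosen with earlier results of these data known. The rule named, in each stretch, the 3 highest positions, the highest of WT, and the 3 with the largest ratio of medians on each side of WT with all replicates on that side and 20 RPM or more in either strain, plus the 10 positions on each side of the border. Alternatives were other scalings, summaries, edges, filters and left-out replicates. Calculations used Python 3.11.15, numpy 2.4.6, pandas 2.3.3 and scipy 1.17.1, figures matplotlib 3.10.9, and were tested on simulated profiles.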

Additional observations from a re-analysis of the deposited data

How the results depend on the processing

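No paired analysis was possible because WT enters as 1 pooled value per position and only the *hmo1Δ* replicates carry numbers. ITS2 above WT and the shallower step in *hmo1Δ* kept their direction under every alternative run, whereas 5.8S below WT did not. The log2 ratio to WT was -0.11 in 5.8S and 1.03 in ITS2 when scaled to 18S and 25S, and -0.70 and 0.45 when scaled to the 4 spacers, of which ITS2 is one. By the median position it was -0.20 and 1.32, and by the mean of log2(RPM + 1) 0.0096 and 1.09. For ITS2 it was 1.13 without 10 positions at each end, 1.13 without its 5 highest positions and 1.13 without its first 10, a choice made after seeing the data. Leaving out 1 replicate at a time gave -0.17 to -0.13 for 5.8S and 0.97 to 1.00 for ITS2.

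The step in *hmo1Δ* was -1.25 by the median position, -1.27 without 10 positions at each end of both stretches, -1.11 without the 5 highest positions and, chosen after seeing the data, -1.21 without 10 positions on each side of the border. In the same order its difference from WT was 1.52, 1.27, 1.25 and 1.26, and it was 1.08 by the mean of log2(RPM + 1). With 1 replicate left out the step was -1.17 to -1.14 and its difference from WT 1.14 to 1.17. The number of 5.8S positions above WT was 23 when scaled to the spacers and 20 at 1.5 times WT, against 51, and 54 to 56 with 1 replicate left out. For ITS2 it was 195 to 200 with 1 left out, against 192. With a replicate left out the rule is easier to meet, so both counts could only stay equal or rise. ITS2 minus ITS1 turned to 0.33 by the median position and 0.086 by the mean of log2(RPM + 1), and was -0.11 to -0.07 with 1 replicate left out. Counting peaks within 3 positions gave 20 in ITS2, against 13. By the mean of log2(RPM + 1), the level at C relative to all ITS2 positions turned from 0.14 to -0.0023 and that at U from -0.02 to 0.0021. The causes were not tested. WT has no error of its own here, 3 replicates allow no *p* below 0.25, and replicate 2 held the fewest reads.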

Other observations

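ITS2 holds 2 runs of 6 or more U, at 3097 to 3104 and 3182 to 3188, and the stretches after them were compared after the values had been seen. The last 10 positions before the first run, 3087 to 3096, were at 98.0 ± 2.06 RPM (SD, n = 3) in *hmo1Δ* and 39.2 RPM in WT, a log2 ratio of 1.32 ± 0.03. The 10 positions after it, 3105 to 3114, were at 66.2 ± 2.06 RPM against 41.5 RPM (log2 ratio 0.68 ± 0.05, SD, n = 3). The next 10, 3115 to 3124, were at 154, 170 and 137 RPM in replicates 1, 2 and 3 against 23.5 RPM in WT, a log2 ratio of 2.705 ± 0.158, and every one of them had all replicates above WT. At the second run, the 10 positions before it, 3172 to 3181, had a log2 ratio of 2.03 ± 0.13 (SD, n = 3). The 10 after it, 3189 to 3198, had a log2 ratio of 0.43 ± 0.14 (SD, n = 3), with 5 of 10 positions above WT in all replicates. Positions 3199 to 3208 had 2.18 ± 0.10, with 10 of 10 above, which did not separate from the stretch before the run.

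The same count was made at other U runs of that length in the gene. Of 6 runs with values for both stretches, 4 lie outside ITS2. At 6 of 6 the log2 ratio was higher 11 to 20 nucleotides after the run than 1 to 10, by 0.37 to 2.12. A further run, 6647 to 6652, starts at the last position of 25S and was not counted. The 2 runs in ITS2 are those whose values prompted the count. How often such a difference occurs away from U runs was not counted, so the 6 of 6 has no background share. The stretch before a run was not always lower than that at 11 to 20 after, since at the 18S run from 1362 to 1367 it had 0.89 ± 0.22 (SD, n = 3) against 0.49 ± 0.21. In ITS1, positions 2535 to 2544 after the run at 2528 to 2534 were at -0.06 ± 0.12 (SD, n = 3) and positions 2545 to 2554 at 2.06 ± 0.02. These stretches share libraries, were not chosen independently of the values and differ in their other bases, so the values carry no test.

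At 19 positions of ITS2 all replicates were below WT, and the positions around them were read after their values had been seen. At each distance from 9 to 12 nucleotides after them, 19 of 19 positions were above WT in every replicate, with median log2 ratios from 1.82 to 2.06. At the same distances before them, 17 or 18 of 18 positions were above WT, with medians from 1.19 to 1.66. ITS2 was above WT in every replicate at 82.8% of its positions, so a high count is the background here, and many of the windows overlap.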
